A study of Homo sapiens with 8 samples.

Results

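The genes described here are those of cholesterol metabolism, chosen by symbol: 30 listed genes of cholesterol synthesis, SREBP regulation, sterol transport and sterol efflux. Of these, 29 had a row in the deposited table of 22504 genes, and for SC5D, a sterol desaturase gene, expression is not analysed here. They were 8 genes of the mevalonate pathway, 10 from squalene to sterol, 5 SREBP factors and regulators, 2 of sterol transport, 3 LXR targets, and LPIN1, a phosphatidate phosphatase gene under SREBP control. The cells were U2OS, a human osteosarcoma line, which either overexpressed an actin mutant called G13R or expressed GFP as control. Polyadenylated RNA was sequenced from G13R cells after serum stimulation, G13R cells in normal growth, GFP cells after serum stimulation and GFP cells in normal growth, with 2 libraries in each of the 4 groups. The labels do not give which actin gene was mutated, the promoter used, whether a line was 1 clone, how long serum was applied, or how the cells were kept before it.

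Animal cells make cholesterol from acetyl-CoA through mevalonate, farnesyl diphosphate, squalene and lanosterol. The SREBP transcription factors switch on the enzymes of that route when sterols in the endoplasmic reticulum run low: SCAP escorts SREBP to the Golgi for cleavage, and INSIG proteins hold the complex back when sterols are plentiful. LXR nuclear receptors answer the opposite state and switch on efflux pumps and MYLIP, a ubiquitin ligase that removes lipoprotein receptors. Serum carries lipoprotein cholesterol as well as growth factors.

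Values are FPKM, fragments per kilobase of transcript, scaled to the mapped fragments of the library. This puts genes and libraries on a common scale but does not correct for differences in RNA composition between libraries. The summed FPKM was between 496166 and 559496 per library, and 12065 to 12568 genes reached 1 FPKM. The depth behind each value is unknown. ACTB, the beta-actin gene, had 8676 and 7949 FPKM in G13R cells after serum and 11245 and 10011 FPKM in G13R cells in normal growth, against 2543 and 2615 FPKM in GFP cells after serum and 2602 and 2779 FPKM in GFP cells in normal growth, so the libraries labelled G13R stood apart in actin RNA. Of 9 osteoblast lineage markers, 6 passed the filter on low values and COL1A2, SP7 and IBSP did not. Of 5 epithelial markers 4 passed, and of 4 hepatocyte markers SERPINA1 alone passed. The summed level of the 5 epithelial markers was 696 to 699 FPKM in G13R cells after serum, 533 to 593 FPKM in G13R cells in normal growth, 894 to 1051 FPKM in GFP cells after serum and 691 to 785 FPKM in GFP cells in normal growth. The 9 osteoblast markers summed to 546 to 592 FPKM in G13R cells after serum, 470 to 512 FPKM in G13R cells in normal growth, 693 to 848 FPKM in GFP cells after serum and 601 to 689 FPKM in GFP cells in normal growth. Both sums were therefore higher after serum in each kind of cell and lower in G13R than in GFP cells, without overlap, as many sterol genes were after serum, and their part in the results was not tested. The hepatocyte sum was 35.7 to 35.8 FPKM in G13R cells after serum, 28.3 to 29.4 FPKM in G13R cells in normal growth, 34.9 to 45.2 FPKM in GFP cells after serum and 27.7 to 31.0 FPKM in GFP cells in normal growth. No leukocyte marker of 4 passed, and their summed level was between 0.487 and 1.37 FPKM in all libraries. The labels leave unsaid whether libraries of a group were grown apart, so every p-value here weighs a difference against library-to-library spread that could be technical. In bulk RNA, fewer cells of a type and less RNA per cell cannot be told apart.

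Promoters of 4 genes with a marked match are shown because their products stand at the 2 ends of the sterol response: SREBF2, INSIG1 and HSD17B7 were higher after serum in both kinds of cell, as given further on, and ABCA1 is the textbook LXR target. Each run gives 250 bases before to 50 bases after the transcription start, 5′ to 3′ on the gene's strand, from RefSeq on GRCh38.p14. In the SREBF2, INSIG1 and HSD17B7 promoters the capitals mark CACNCNAC on either strand, the core of a sterol regulatory element, and in SREBF2 they also cover the longer form TCACNCCAC. In the ABCA1 promoter the capitals mark a direct repeat on the opposite strand, GNTNA followed after 5 bases by GNTNA. Each GNTNA is a half-site written without its first base, so whole half-sites lie 4 bases apart, the spacing that LXR with its RXR partner binds.
SREBF2, chr22:41832855-41833154, plus strand: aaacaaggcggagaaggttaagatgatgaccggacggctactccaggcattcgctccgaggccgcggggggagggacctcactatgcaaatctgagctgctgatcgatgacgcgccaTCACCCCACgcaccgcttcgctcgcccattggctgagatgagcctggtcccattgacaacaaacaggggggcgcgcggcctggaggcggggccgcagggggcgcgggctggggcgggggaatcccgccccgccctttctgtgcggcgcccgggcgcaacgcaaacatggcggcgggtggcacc
INSIG1, chr7:155297628-155297927, plus strand: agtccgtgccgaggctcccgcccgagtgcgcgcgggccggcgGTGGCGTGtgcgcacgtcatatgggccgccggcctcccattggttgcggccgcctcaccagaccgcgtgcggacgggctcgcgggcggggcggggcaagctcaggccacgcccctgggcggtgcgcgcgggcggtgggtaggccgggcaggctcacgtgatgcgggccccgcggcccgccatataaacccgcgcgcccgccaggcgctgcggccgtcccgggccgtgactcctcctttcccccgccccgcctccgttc
HSD17B7, chr1:162790452-162790751, plus strand: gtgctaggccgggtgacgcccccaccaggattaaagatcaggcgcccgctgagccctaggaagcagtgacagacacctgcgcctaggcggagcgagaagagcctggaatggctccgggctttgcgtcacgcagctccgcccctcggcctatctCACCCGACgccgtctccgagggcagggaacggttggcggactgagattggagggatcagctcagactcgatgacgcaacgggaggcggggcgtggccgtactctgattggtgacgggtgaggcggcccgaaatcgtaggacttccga
ABCA1, chr9:104928106-104928405, minus strand: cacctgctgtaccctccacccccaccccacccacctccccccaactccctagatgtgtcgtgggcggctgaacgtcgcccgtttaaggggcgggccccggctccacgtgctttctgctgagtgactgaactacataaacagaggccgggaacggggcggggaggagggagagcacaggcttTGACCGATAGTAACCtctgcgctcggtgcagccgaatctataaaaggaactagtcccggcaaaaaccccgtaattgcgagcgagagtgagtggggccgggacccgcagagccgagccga

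Promoter windows were matched to 26 of the 30 listed genes, 36 windows in all, and ACAT2, FDFT1, SQLE and ABCG1 had none. Windows on chromosome 8, where FDFT1 and SQLE lie, were left out for the listed genes but not from the count of all windows. CACNCNAC was in 11 of these 36 windows (30.6%), of 10 genes, against 11.3% of all 35116 windows. The 10 were DHCR7, FDPS, HMGCS1, HSD17B7, IDI1, INSIG1, LSS, SC5D, SREBF2 and ABCA1, where the match is left in lower case. STARD4, MSMO1 and MVD, which also rose after serum in both kinds of cell, had windows without CACNCNAC. The longer form TCACNCCAC was in SREBF2 alone, 133 bases before its start, and in 1.13% of all windows. CCAAT, bound by NF-Y, a usual partner of SREBP, was in 20 of the 36 windows (55.6%), against 34.6% of all windows. The direct repeat was in 4 of the 36 windows (11.1%), those of ABCA1, FDPS, HMGCS1 and HSD17B7, against 6.79% of all windows. These matches describe the letters of the windows, overlap between the motifs was not removed, and none of them shows that a factor is bound. The motifs were chosen after these sequences were seen, so the shares are given as values only and do not test enrichment.

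What serum did to the sterol genes within each kind of cell was the main comparison, and the responses of G13R and GFP cells share no library. Of the 29 genes, 28 reached 1 FPKM in at least 2 libraries and were tested, and ABCA1 did not. In G13R cells 20 of the 28 tested genes were higher after serum and 0 lower, and in GFP cells 23 were higher and 0 lower (limma on log2(FPKM + 1), adjusted p under 0.05 over all 12996 genes tested). Among all tested genes, 8.26% were called higher and 4.62% lower in G13R cells, 12.9% in all, and 14.9% were called higher and 15.7% lower in GFP cells, 30.7% in all. The median log2 fold change of the 28 genes was 0.762 in G13R cells and 1.08 in GFP cells, against medians of 0.0434 and 0.0119 over all genes. By an unadjusted p under 0.05, 23 of the 28 passed in G13R cells and 24 in GFP cells, as did 29.3% and 42.4% of all genes. Both libraries after serum lay above both libraries in normal growth for 24 of 28 genes in G13R cells, where 34.3% of all genes did, and for 25 of 28 in GFP cells, where 33.3% did. The heat map of the libraries shows this as blocks that run across most rows.

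**Figure D1:**
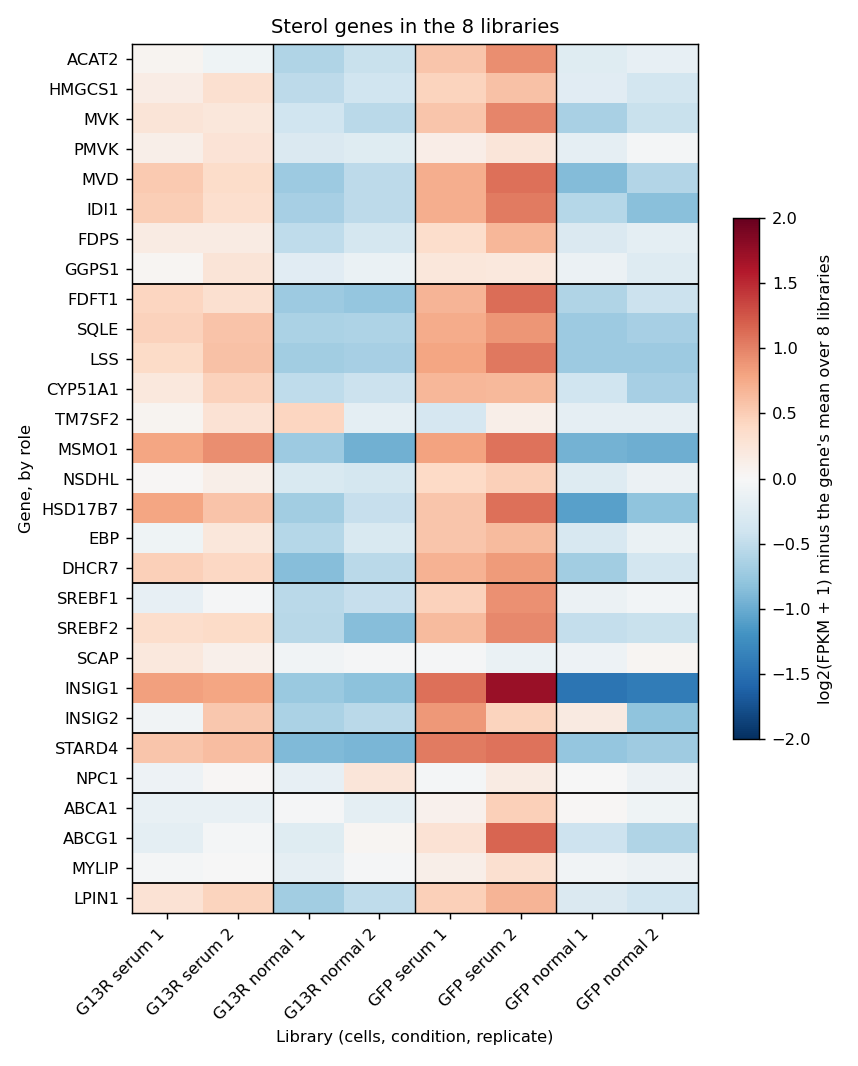
Each row is 1 of the 29 genes, grouped by role from the mevalonate pathway at the top to LPIN1, and each column is 1 of the 8 libraries; colour gives log2(FPKM + 1) minus the gene's mean over the libraries. The serum libraries of G13R and of GFP cells are red in most rows. Rows such as TM7SF2, SCAP, NPC1, MYLIP, ABCA1, ABCG1 and SREBF1 do not show this in both kinds of cell.

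In the mevalonate pathway 7 of 8 genes rose after serum in G13R cells and 7 of 8 in GFP cells, with median log2 fold changes of 0.644 and 0.882. The largest responses were those of MVD, IDI1 and MVK, which decarboxylate, isomerize and phosphorylate the intermediates between mevalonate and the isoprenoid units. MVD (chromosome 16, 88718343 to 88729569, hg19) had 76.5 and 68.5 FPKM in G13R cells after serum, against 31.8 and 36.6 FPKM in normal growth, and 88.5 and 115 FPKM in GFP cells after serum, against 28.5 and 35.1 FPKM in normal growth. Serum and normal growth did not overlap in either kind of cell, and the log2 fold changes were 1.06 ± 0.14 in G13R cells (SE, limma adjusted p = 0.00198) and 1.64 ± 0.14 in GFP cells (adjusted p = 7.88e-05). IDI1 (chromosome 10, 1085848 to 1095110) had 17.2 and 15.2 FPKM in G13R cells after serum, against 7.16 and 8.03 FPKM in normal growth, and 20.4 and 25.7 FPKM in GFP cells after serum, against 7.74 and 6.21 FPKM in normal growth. It rose by 1.00 ± 0.16 in G13R and 1.59 ± 0.16 in GFP cells on the log2 scale. MVK (chromosome 12, 110011060 to 110035067) had 20.3 and 19.9 FPKM in G13R cells after serum, against 12.4 and 11.3 FPKM in normal growth, and 25.2 and 33.96 FPKM in GFP cells after serum, against 10.4 and 12.1 FPKM in normal growth, without overlap.

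The most abundant RNAs of the pathway moved less. HMGCS1, which makes HMG-CoA, and FDPS, which makes farnesyl diphosphate, averaged 118 ± 9.68 and 118 ± 0.344 FPKM in G13R cells after serum and 143 ± 9.32 and 152 ± 24.1 FPKM in GFP cells after serum (SD, n = 2 each). Their log2 fold changes were 0.69 ± 0.10 and 0.59 ± 0.11 in G13R cells and 0.82 ± 0.10 and 0.75 ± 0.11 in GFP cells. ACAT2, the thiolase that opens the route, rose by 0.51 ± 0.14 in G13R and 0.95 ± 0.14 in GFP cells. The span of ACAT2 overlaps those of TCP1 and SOD2 in the table, and 12 of the 29 genes overlap another gene in this way, so reads could be shared where strand was not used. PMVK, which phosphorylates phosphomevalonate, rose in G13R cells (0.47 ± 0.11, adjusted p = 0.0256) and was not called in GFP cells (0.29 ± 0.11, adjusted p = 0.0798). GGPS1, which makes the geranylgeranyl diphosphate used on small GTPases, was not called in G13R cells (0.32 ± 0.13, adjusted p = 0.123) and rose in GFP cells (0.41 ± 0.13, adjusted p = 0.0352). Neither gene passed the test of the difference between the responses.

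From squalene to sterol, 9 of 10 genes rose after serum in each kind of cell, with median log2 fold changes of 1.13 in G13R and 1.36 in GFP cells. MSMO1, which oxidizes the methyl groups of sterol intermediates (chromosome 4, 166248775 to 166264312), had 36.5 and 40.2 FPKM in G13R cells after serum, against 12.1 and 10.1 FPKM in normal growth, and 36.8 and 44.9 FPKM in GFP cells after serum, against 10.3 and 10.04 FPKM in normal growth. The serum libraries of both kinds of cell lay together, above all 4 libraries in normal growth. Its log2 fold change was 1.70 ± 0.13 in G13R cells (adjusted p = 1.06e-04) and 1.90 ± 0.13 in GFP cells (adjusted p = 2.74e-05). HSD17B7, the keto-reductase that acts in the same demethylation (chromosome 1, 162760492 to 162782607), had 19.1 and 16.3 FPKM in G13R cells after serum, against 6.19 and 7.47 FPKM in normal growth, and 16.2 and 24.1 FPKM in GFP cells after serum, against 4.47 and 5.67 FPKM in normal growth. It rose by 1.26 ± 0.20 in G13R and 1.78 ± 0.20 in GFP cells, and reads of its pseudogene HSD17B7P2, also in the table, could be split with it. LSS, lanosterol synthase (chromosome 21, 47608360 to 47648738), had 35.4 and 41.1 FPKM in G13R cells after serum, against 16.4 and 16.6 FPKM in normal growth, and 47.1 and 57.1 FPKM in GFP cells after serum, against 15.96 and 15.9 FPKM in normal growth. The normal growth libraries of LSS were nearly level across both kinds of cell, and all 4 serum libraries were higher.

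FDFT1 and SQLE, which make and epoxidize squalene, rose by 1.12 ± 0.13 and 1.13 ± 0.09 in G13R cells and by 1.42 ± 0.13 and 1.51 ± 0.09 in GFP cells. DHCR7, the final reductase, rose by 1.14 ± 0.14 in G13R and 1.30 ± 0.14 in GFP cells, and CYP51A1, the lanosterol demethylase, by 0.81 ± 0.13 and 1.19 ± 0.13. NSDHL and EBP, a dehydrogenase and an isomerase of the late steps, rose least, by 0.40 ± 0.11 and 0.50 ± 0.13 in G13R cells and by 0.63 ± 0.11 and 0.81 ± 0.13 in GFP cells. TM7SF2, a sterol reductase whose step the lamin B receptor can also carry out, was the exception. It had 10.6 and 12.6 FPKM in G13R cells after serum, against 14.1 and 8.82 FPKM in normal growth, and 7.88 and 11.1 FPKM in GFP cells after serum, against 8.85 and 8.93 FPKM in normal growth, with overlap in both (adjusted p = 0.899 and 0.832). The calls of ACAT2, MVK, PMVK, NSDHL and EBP in G13R cells were lost when any 1 of the 4 G13R libraries was left out, and that of FDPS when any but G13R normal replicate 2 was (adjusted p up to 0.235). The GGPS1 call in GFP cells was lost without any 1 of the 4 GFP libraries. Processing mattered as well. In G13R cells the NSDHL call was lost with no filter, median-ratio scaling, quantile normalization or no trend. That of ACAT2 was lost with no filter, quantile normalization or no trend. EBP lost its call with no filter or no trend, MVK with no filter and PMVK with no trend. In GFP cells GGPS1 lost its call with no filter, quantile normalization or only the compared libraries.

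**Figure D2:**
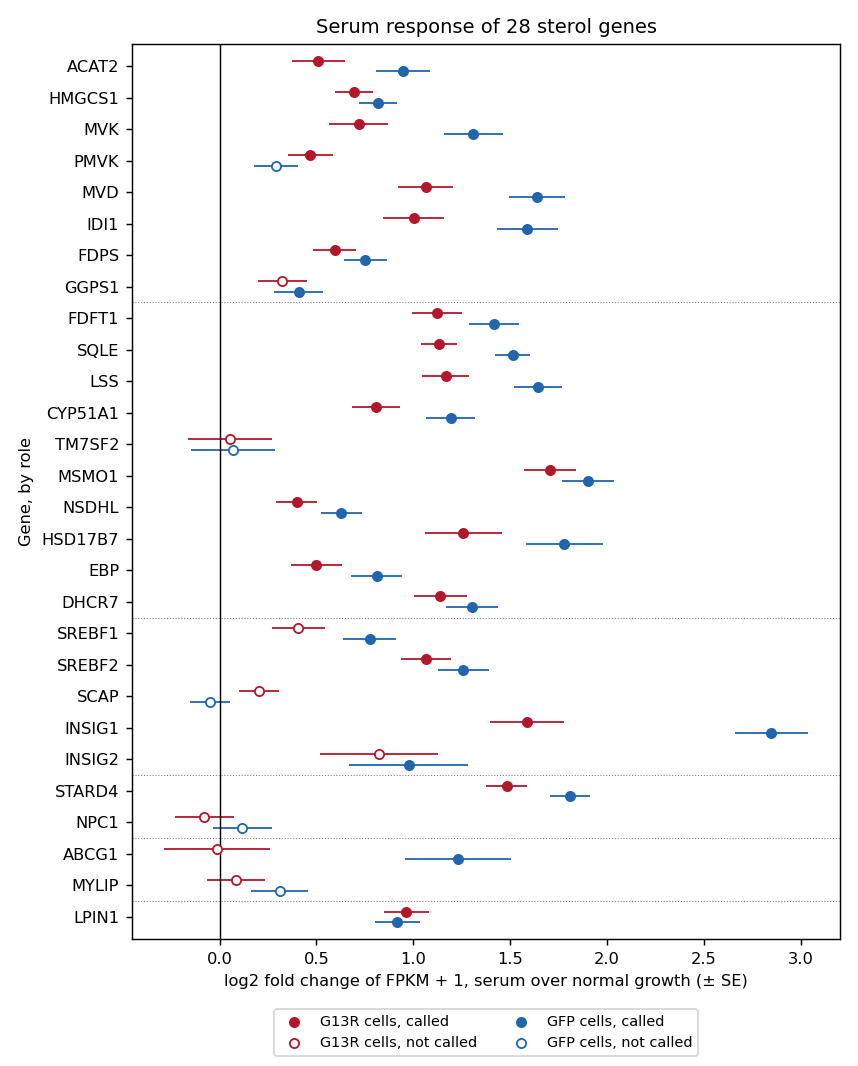
Each row is 1 of the 28 genes that passed the filter; points give the log2 fold change of FPKM + 1 between serum and normal growth, bars ± 1 SE, red for G13R and blue for GFP cells, filled where called. Nearly all genes lie to the right of 0 in both kinds of cell, INSIG1 in GFP cells farthest at 2.85, and the red point lies left of the blue one in 25 of 28 rows.

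Among the SREBP factors and regulators, 2 of 5 rose after serum in G13R cells and 4 of 5 in GFP cells. SREBF2, which encodes the factor that mainly drives sterol enzymes (chromosome 22, 42229109 to 42303312), had 56.4 and 58.0 FPKM in G13R cells after serum, against 29.7 and 24.1 FPKM in normal growth, and 68.7 and 86.7 FPKM in GFP cells after serum, against 31.3 and 32.1 FPKM in normal growth. It rose by 1.07 ± 0.13 in G13R cells (adjusted p = 0.00112) and 1.26 ± 0.13 in GFP cells (adjusted p = 1.74e-04). INSIG1, a sterol-dependent anchor of the SCAP and SREBP complex and itself an SREBP target (chromosome 7, 155089486 to 155101945), had 16.2 and 15.7 FPKM in G13R cells after serum, against 4.83 and 4.48 FPKM in normal growth, and 19.97 and 31.1 FPKM in GFP cells after serum, against 2.52 and 2.68 FPKM in normal growth. G13R cells thus had the higher INSIG1 values in normal growth and the lower ones after serum, without overlap at either. The log2 fold change was 1.59 ± 0.19 in G13R cells (adjusted p = 0.00106) and 2.85 ± 0.19 in GFP cells (adjusted p = 2.52e-05).

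SREBF1, whose product mainly drives fatty acid genes and which LXR can also induce (chromosome 17, 17713713 to 17740325), had 41.4 and 45.7 FPKM in G13R cells after serum, against 31.6 and 33.6 FPKM in normal growth, and 64.5 and 88.2 FPKM in GFP cells after serum, against 42.7 and 44.7 FPKM in normal growth. It was not called in G13R cells (0.41 ± 0.14, adjusted p = 0.0775) and rose in GFP cells (0.77 ± 0.14, adjusted p = 0.00249). INSIG2, the paralog of INSIG1, had 6.71 and 10.8 FPKM in G13R cells after serum, against 4.24 and 4.56 FPKM in normal growth, and 13.8 and 10.02 FPKM in GFP cells after serum, against 8.11 and 3.62 FPKM in normal growth. Its libraries differed widely within groups; it was not called in G13R cells (0.82 ± 0.31, adjusted p = 0.106) and was called in GFP cells (0.98 ± 0.31, adjusted p = 0.0363), a call lost without GFP normal replicate 2 (0.49, adjusted p = 0.244) or GFP serum replicate 1 (0.76, adjusted p = 0.142). Without GFP normal replicate 1 its log2 fold change was 1.46. The INSIG2 call in GFP cells was also lost with no filter, under quantile normalization, with only the compared libraries and without the trend. SCAP had 35.9 and 33.0 FPKM in G13R cells after serum, against 29.4 and 30.3 FPKM in normal growth, and 30.1 and 27.9 FPKM in GFP cells after serum, against 28.6 and 31.7 FPKM in normal growth. It was called in neither (adjusted p = 0.226 and 0.741).

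The 2 transport genes differed. STARD4, a cytosolic sterol carrier (chromosome 5, 110831731 to 110848288), had 29.95 and 31.1 FPKM in G13R cells after serum, against 10.4 and 10.2 FPKM in normal growth, and 42.0 and 43.9 FPKM in GFP cells after serum, against 11.3 and 11.8 FPKM in normal growth. The libraries of each group were close, and STARD4 had the smallest p of the 28 genes in both responses, with log2 fold changes of 1.48 ± 0.10 (adjusted p = 5.33e-05) and 1.81 ± 0.10 (adjusted p = 2.16e-05). NPC1, which exports cholesterol from lysosomes (chromosome 18, 21086307 to 21166862), had 15.7 and 17.2 FPKM in G13R cells after serum, against 15.0 and 20.2 FPKM in normal growth, and 16.4 and 19.04 FPKM in GFP cells after serum, against 16.9 and 15.6 FPKM in normal growth. It overlapped in both and was not called (adjusted p = 0.767 and 0.593). LPIN1 rose by about the same amount in both, 0.96 ± 0.12 in G13R and 0.92 ± 0.12 in GFP cells.

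The listed LXR targets gave another picture in G13R cells, and a less clear one in GFP cells. ABCA1, the pump that loads cholesterol onto apolipoproteins (chromosome 9, 107543283 to 107690518), had 0.282 and 0.281 FPKM in G13R cells after serum, against 0.393 and 0.236 FPKM in normal growth, and 0.503 and 0.975 FPKM in GFP cells after serum, against 0.434 and 0.326 FPKM in normal growth. It stayed under 1 FPKM in all 8 libraries and was not tested. ABCG1, a pump that passes sterols to lipoprotein particles (chromosome 21, 43619799 to 43717354), had 1.87 and 2.19 FPKM in G13R cells after serum, against 1.78 and 2.36 FPKM in normal growth, and 3.02 and 6.33 FPKM in GFP cells after serum, against 1.47 and 1.16 FPKM in normal growth. The G13R groups overlapped (adjusted p = 0.981), while both GFP serum libraries lay above the other 6 libraries. In GFP cells the log2 fold change was 1.23 ± 0.27 (adjusted p = 0.00796), and the call was lost without GFP serum replicate 2, at 0.80 with adjusted p = 0.051, and without GFP normal replicate 2, at 1.14 with adjusted p = 0.0512. MYLIP (chromosome 6, 16129356 to 16148479) had 6.74 and 6.95 FPKM in G13R cells after serum, against 6.01 and 6.79 FPKM in normal growth, and 7.64 and 8.93 FPKM in GFP cells after serum, against 6.59 and 6.36 FPKM in normal growth. MYLIP was not called in G13R cells (0.09 ± 0.15, adjusted p = 0.742) or GFP cells (0.31 ± 0.15, adjusted p = 0.142). In GFP cells both serum libraries of MYLIP and of ABCA1 also lay above the other 6 libraries, for ABCA1 at values under 1 FPKM. Of all tested genes, 33.3% had both GFP serum libraries above both GFP libraries in normal growth.

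Set side by side, the median log2 fold change was 0.762 for the 18 synthesis enzymes and 0.0367 for the 2 tested LXR targets in G13R cells, and 1.25 and 0.771 in GFP cells, where the LXR median lies between ABCG1 at 1.23 and MYLIP at 0.31. The synthesis enzymes had a median of 31.7 and 36.6 FPKM in G13R cells after serum, against 16.99 and 17.7 FPKM in normal growth, and of 37.7 and 43.3 FPKM in GFP cells after serum, against 18.5 and 20.1 FPKM in normal growth. The median over the 3 listed LXR targets lay far lower on the same scale, between 1.16 and 6.33 FPKM in the 8 libraries. It was the ABCG1 value in every library, while MYLIP had 6.01 to 8.93 FPKM and ABCA1 stayed under 1 FPKM. It does not stand for LXR targets at large.

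**Figure D3:**
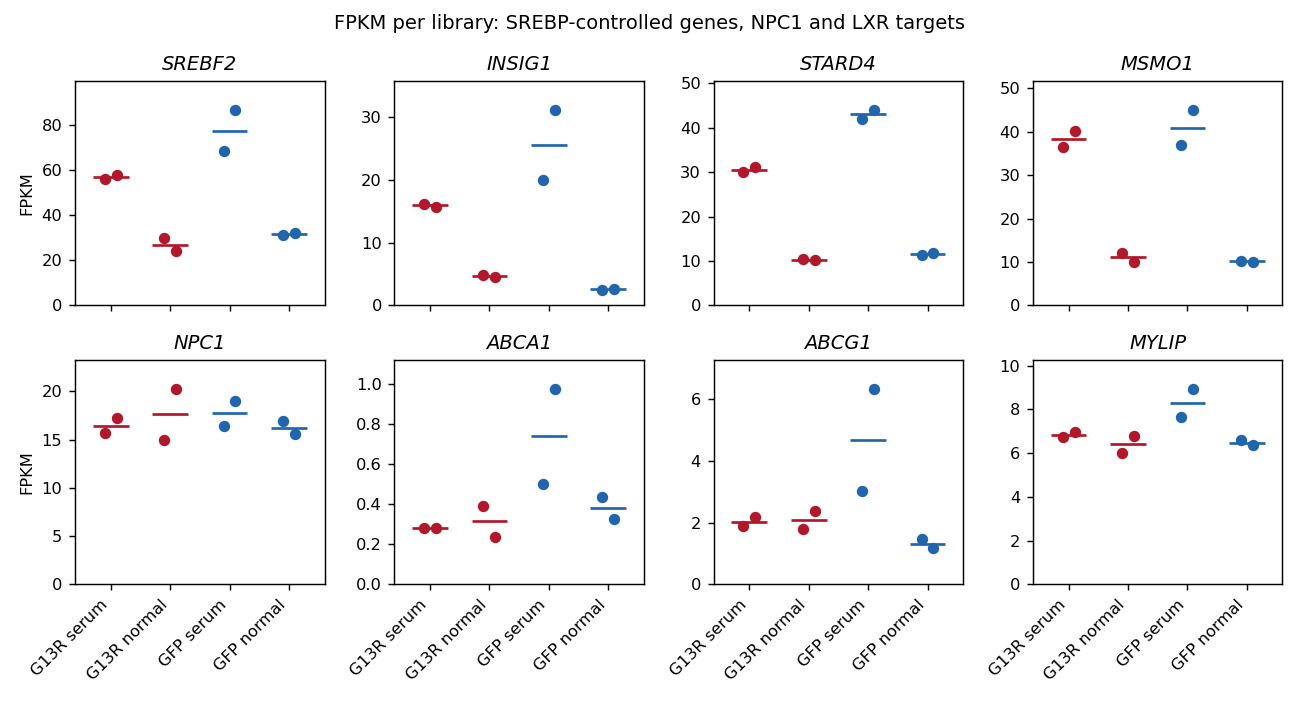
FPKM per library on a linear axis from 0, with 1 point per library and a bar for the mean of 2, red for G13R and blue for GFP cells. SREBF2, INSIG1, STARD4 and MSMO1 are higher in all serum libraries, NPC1 is level, ABCA1 stays under 1 FPKM, and the highest ABCG1 value, 6.33 FPKM, is that of GFP serum replicate 2.

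How alike the responses of the cells were was described over the same 28 genes. The calls shared 19 genes, 95% of those called in G13R cells and 82.6% of those called in GFP cells. PMVK was called in G13R cells alone, and ABCG1, GGPS1, INSIG2 and SREBF1 in GFP cells alone, while MYLIP, NPC1, SCAP and TM7SF2 were called in neither. Across the 28 genes the log2 fold changes of the responses had Pearson's r of 0.867 and Spearman's rho of 0.893, and genes measured in the same libraries are not independent.

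The signed log2 fold change after serum was lower in G13R than in GFP cells for 25 of the 28 genes (89.3%). It was lower for 43.9% of all tested genes. Where a gene fell after serum, a lower value is a larger fall, so 43.9% is not the share with a weaker response. Over all tested genes, calls in either direction were also fewer in G13R cells, 12.9% against 30.7% in GFP cells. Among the 25, the sign for FDPS, GGPS1, INSIG2, NPC1 and TM7SF2 changed in some fits with a library left out. The median difference, G13R minus GFP, was -0.263 on the log2 scale over the 28 genes and 0.0429 over all genes. In the test of the difference itself 0 of 28 genes passed by limma, as did 0% of all 12996 genes, and 8 of the 28 had an unadjusted p under 0.05, against 11.8% of all genes. INSIG1 had the largest difference, -1.26 ± 0.27 (95% interval -1.86 to -0.663, adjusted p = 0.259), and ABCG1 followed with -1.24 ± 0.39 (95% interval -2.11 to -0.381, adjusted p = 0.3). The other 6 were MVK at -0.59 ± 0.21, IDI1 at -0.59 ± 0.22, MVD at -0.58 ± 0.20, LSS at -0.48 ± 0.17, ACAT2 at -0.44 ± 0.20 and SQLE at -0.38 ± 0.13. Without GFP serum replicate 1, INSIG1 (-1.57, adjusted p = 0.00681) and ABCG1 (-1.68, adjusted p = 0.0234) passed. Without GFP serum replicate 2 neither did, at -0.95 (adjusted p = 0.364) for INSIG1 and -0.81 (adjusted p = 0.495) for ABCG1.

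GFP serum replicate 2 had the higher value of the pair in 24 of the 28 genes (85.7%), with a median ratio to replicate 1 of 1.19, against 54.9% of all genes and a median ratio of 1.03. In the other groups replicate 2 was the higher in 17 to 20 of the 28. The part of GFP serum replicate 2 in the lower responses of G13R cells was not tested beyond refitting the listed genes without it.

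G13R cells were also set against GFP cells directly, after serum and in normal growth. After serum 0 of 28 genes were called higher and 2 lower, ACAT2 and SREBF1, where 0.331% of all genes were called higher and 0.492% lower, 0.823% in all. By an unadjusted p under 0.05, 19 of the 28 passed, as did 20.8% of all genes. SREBF1, with the values given above, was lower in G13R than in GFP cells, with a log2 fold change of -0.78 ± 0.14 (adjusted p = 0.0443). ACAT2 (chromosome 6, 160181360 to 160200144) had 22.3 and 20.3 FPKM in G13R cells after serum, against 32.1 and 41.7 FPKM in GFP cells after serum, a difference of -0.75 ± 0.14 (adjusted p = 0.048). Both calls were lost without GFP serum replicate 2, G13R serum replicate 1 or G13R serum replicate 2, which left 0 calls each, and 13 genes were called lower without GFP serum replicate 1. Among the genes that did not pass were STARD4 at -0.48 ± 0.10 (adjusted p = 0.0589), INSIG1 at -0.61 ± 0.19 (adjusted p = 0.121) and ABCG1 at -0.84 ± 0.27 (adjusted p = 0.132). Both G13R libraries lay below both GFP libraries for 20 of 28 genes after serum, where 29.4% of all genes did, and above them for SCAP alone, where 22.6% did. The median log2 fold change was -0.357 over the 28 genes and -0.0328 over all genes.

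In normal growth 0 of 28 genes were called in either direction by limma, where 0.0385% of all genes were called higher and 0.00769% lower, 0.0462% in all. Both G13R libraries lay below both GFP libraries for 10 of the 28, where 34.3% of all genes did, and above them for 5, where 14.4% did. An unadjusted p under 0.05 was found for 4 of the 28, a share no higher than the 15.1% of all genes, so they are given as values only. They were INSIG1 at 0.65 ± 0.19 (adjusted p = 0.181), and SREBF1 at -0.41 ± 0.14, ACAT2 at -0.32 ± 0.14 and LPIN1 at -0.26 ± 0.12 (adjusted p = 0.213, 0.317 and 0.327). The median log2 fold change was -0.0143 over the 28 genes and -0.0738 over all genes. These comparisons share their G13R and GFP libraries with the serum responses, so the values are not separate evidence.

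**Figure D4:**
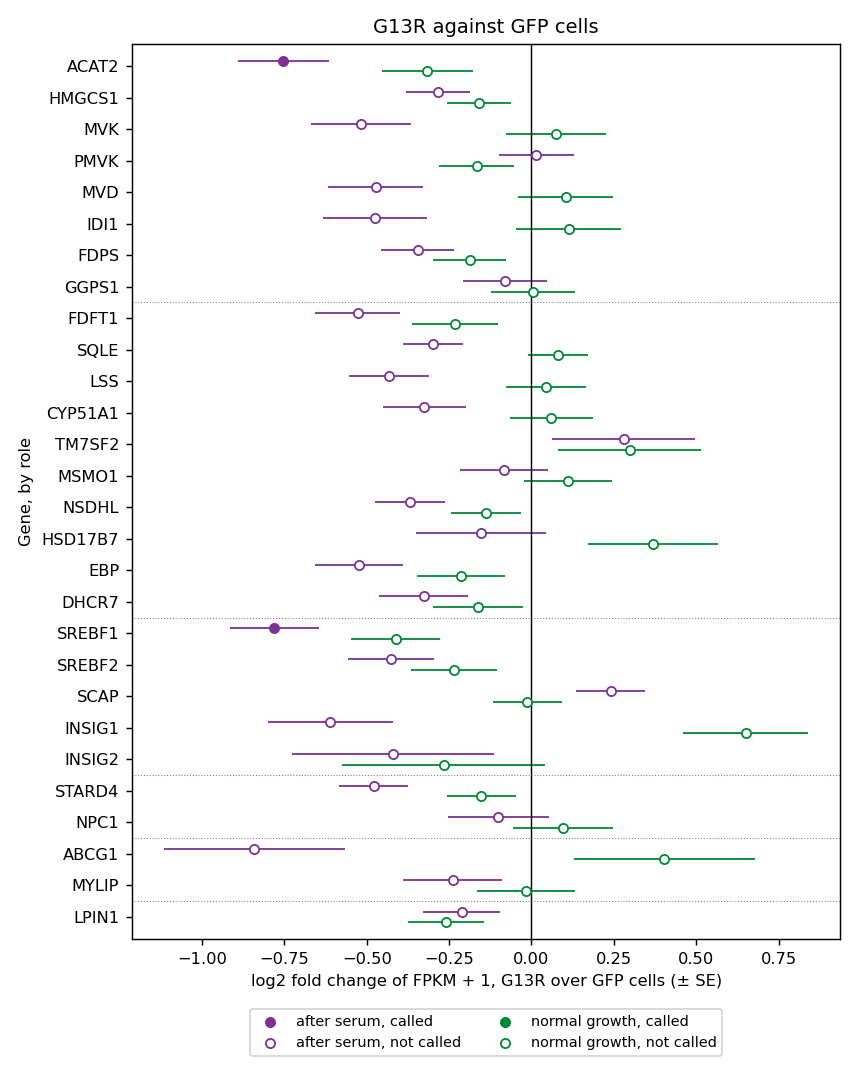
Each row is 1 of the 28 genes; points give the log2 fold change of FPKM + 1 between G13R and GFP cells, bars ± 1 SE, purple after serum and green in normal growth, filled where called. After serum most points lie left of 0 with ACAT2 and SREBF1 filled, and in normal growth no point is filled and INSIG1 lies farthest right at 0.65.

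Genes next to the pathway were counted from 5 further lists. Of all tested genes, 8.26% were called higher and 4.62% lower in G13R cells. In GFP cells 14.9% were called higher and 15.7% lower. Of 8 fatty acid genes under SREBP control, 4 rose after serum in G13R cells and 5 in GFP cells, with medians of 0.684 and 0.746. FADS2, a fatty acid desaturase gene whose span overlaps FADS1, rose by 2.08 ± 0.20 in G13R and 2.52 ± 0.20 in GFP cells. ACSS2, which makes acetyl-CoA from acetate, was called in GFP cells alone (1.89 ± 0.24, adjusted p = 4.87e-04). Of 7 tested LXR and RXR genes and further LXR targets, 1 rose in G13R and 2 in GFP cells. RXRB, an RXR receptor gene, rose by 0.39 ± 0.12 in GFP cells, a call lost without GFP serum replicate 2 or either GFP normal library (adjusted p up to 0.22).

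Of 12 tested genes of sterol storage, lysosome and transport, 3 rose and 2 fell in G13R cells, and 2 rose and 3 fell in GFP cells. In either direction, 12.9% of all genes were called in G13R and 30.7% in GFP cells. The GFP counts of this list and of those that follow are therefore given as values only. GRAMD1C, a sterol transfer protein gene, had 6.85 and 5.24 FPKM in G13R cells after serum, against 1.66 and 1.59 FPKM in normal growth, and 7.59 and 5.44 FPKM in GFP cells after serum, against 3.54 and 6.08 FPKM in normal growth. The serum libraries of both kinds of cell overlapped, and the G13R libraries in normal growth were the lowest. It rose in G13R cells (1.41 ± 0.24, adjusted p = 0.00589) and was not called in GFP cells (0.39 ± 0.24, adjusted p = 0.247), and the difference of the responses did not pass (1.02 ± 0.34, adjusted p = 0.308). NPC2, the lysosomal partner of NPC1, rose by 0.82 ± 0.13 in G13R and 0.99 ± 0.13 in GFP cells. In G13R cells the GRAMD1C call was lost without G13R serum replicate 1 (adjusted p = 0.0596) and the NPC2 call without G13R serum replicate 2 (adjusted p = 0.0537). Of 8 genes of SREBP cleavage and sterol-linked degradation 0 were called in G13R cells by limma (2 by unadjusted p, where 29.3% of all genes were), and in GFP cells 1 rose and 2 fell. MBTPS1, a protease that cleaves SREBP, rose by 0.42 ± 0.11 in GFP cells, a call lost without either GFP normal library. Of 8 tested genes that use isoprenoids 0 were called in G13R cells by limma (2 by unadjusted p, against the same 29.3%), and 1 fell in GFP cells, PDSS1 (-0.54 ± 0.15), a call lost without GFP normal replicate 2 or GFP serum replicate 2. The medians of these last 3 lists lay between -0.185 and 0.138, and those of the LXR and RXR list were 0.235 in G13R and 0.141 in GFP cells, against 0.0434 and 0.0119 over all genes.

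**Figure D5:**
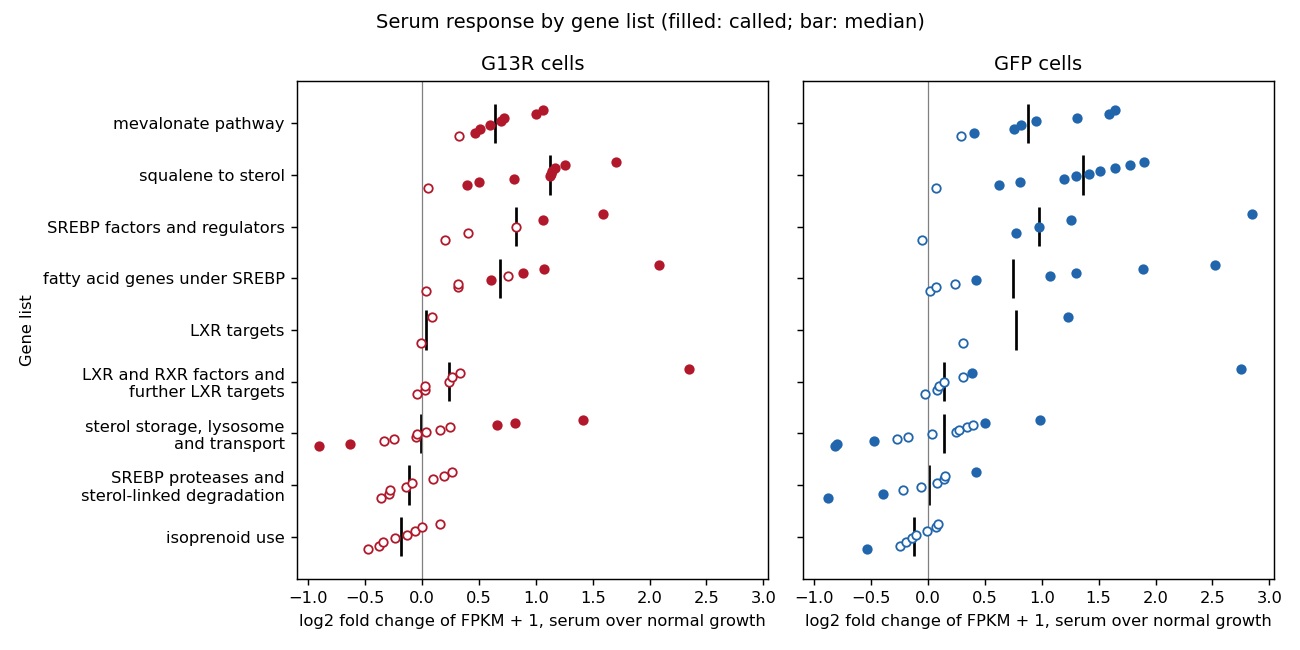
Each point is 1 gene, placed by its log2 fold change of FPKM + 1 between serum and normal growth in G13R cells (left, red) or GFP cells (right, blue), filled where called, with a black bar at the list's median. The enzyme and fatty acid lists have medians from 0.644 to 1.36, while the lists of isoprenoid use and of SREBP cleavage scatter around 0.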

How the data were processed

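A single deposited table gave the authors' FPKM for each gene and library. TopHat2 2.0.13, Cufflinks 2.2.1 and the builds hg19 and BDGP5 are named per the submitters' processing notes, while the annotation and the use of strand are not given in the sources used here. Column names were paired with library titles, taking C for the condition other than serum, normal growth. Gene starts were raised by 1 to count from 1, on hg19.

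The test was limma 3.58.1 under R 4.3.3, fitted to log2(FPKM + 1) with an intensity trend, 1 mean per group, all 8 libraries and 4 residual degrees of freedom. A gene entered if 2 or more libraries reached 1 FPKM, which 12996 did, and Benjamini-Hochberg adjustment ran over all of them. All adjusted p-values come from such fits, checked on simulated data. Fold changes on this scale understate the change of low genes. FPKM keeps no read counts, so no counting interval was computed, and reads of overlapping genes and near-copies are uncertain.

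The genes and lists were chosen with earlier results of these data known, and the promoter motifs after the sequences were seen. Every listed sterol gene is accounted for, with library values for regulators, transport genes, LXR targets and the 3 largest responses of each synthesis group. Of each further list the 2 called genes with the largest serum response are named, except that some are not reported here. Alternatives were another pseudocount, other filters and scalings, fewer libraries, no trend, a 2-fold minimum and a replicate block. Those for the further lists were added after seeing the data.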

Additional observations from a re-analysis of the deposited data

How the results depend on the processing

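The counts of called sterol genes in the serum responses kept within 1.5 times under the changes of pseudocount, filter, scaling, trend, libraries in the fit and replicate block, and no called gene changed sign. Of the calls, 14 of 20 in G13R and 20 of 23 in GFP cells passed under every alternative fit. With a 2-fold minimum the counts were 11 and 14. Leaving out 1 library gave 14 to 15 genes in G13R and 20 to 22 in GFP cells. The 2 genes lower in G13R than GFP cells after serum were 1 with a pseudocount of 0.1, and 0 with no filter, with only the compared libraries, without the trend and with a 2-fold minimum. That count ran between 0 and 13, and the count for the difference of responses between 0 and 2, over the libraries left out. The replicate number as a block gave 4 genes lower after serum, 21 higher in G13R and 23 in GFP cells. Same-numbered libraries had replicate differences correlated at 0.0169 between the G13R groups and 0.121 between the GFP groups, and the labels do not say that a number pairs them.

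Sign changed only in genes not called. Under quantile normalization TM7SF2 was at -0.035 in G13R and -0.025 in GFP cells, and MYLIP at -0.051 in G13R cells. With 1 library left out, the serum response in G13R cells ran between -0.26 and 0.36 for TM7SF2, -0.28 and 0.12 for NPC1, and -0.15 and 0.12 for ABCG1. In GFP cells it ran between -0.15 and 0.30 for TM7SF2 and -0.12 and 0.022 for SCAP. G13R against GFP cells after serum ran between -0.19 and 0.027 for GGPS1, -0.061 and 0.089 for PMVK, -0.22 and 0.056 for MSMO1, and -0.43 and 0.12 for HSD17B7. The difference of responses changed sign with a library left out for FDPS (to 0.0035), NPC1 (0.0069), GGPS1 (0.023), TM7SF2 (up to 0.29) and INSIG2 (up to 0.34). That of LPIN1 went down to -0.058. Some genes also changed sign in G13R against GFP cells in normal growth. The cause was not tested. FPKM gives no depth, so low values such as those of ABCA1 carry an unknown counting error.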
